A study of Mus musculus with 4 samples.

Results

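The regions described here were strong peaks of open chromatin that were listed in exactly 1 of 4 libraries. The 4 peak lists were pooled on chromosomes 1 to 19, overlapping intervals were merged into 144198 regions, and a region was kept when a single list held its peak and that peak had a −log10 q of at least 5. The q value is the peak caller's p-value adjusted for the number of positions tested, so 5 corresponds to a much stricter threshold than the q of 0.05 at which the lists were made. The rule kept 19314 regions, which is 13.4% of all merged regions. Each held 1 peak, and they are called members below. Presence, absence and q were the measured values that the members were chosen by, so their number, strength and absence from the other lists are given as a description. The members nearest to the threshold had a −log10 q of 5.0007 inside it and 4.99978 outside it.

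The libraries were made by ATAC-seq, in which a transposase cuts DNA that is not covered by nucleosomes and the cut fragments are sequenced, from visceral adipose tissue of CD-1 mice aged 8 weeks. CD-1 is an outbred stock, so the 4 mice sampled, 1 per library, can differ in their genomes as well as in treatment. The groups were the control group, descended from dams injected with sesame oil, and the BPA group, descended from dams injected with bisphenol A at 50 mg/kg from embryonic day 7.5 to 13.5, with 2 libraries in each. The mice sampled were not injected themselves, and the labels and the study's text number their generation differently, so it is not given. Open chromatin marks promoters, where transcription starts, and enhancers, which are distant elements bound by cell-type-specific transcription factors. Promoters are open in most cell types, whereas enhancers are usually open in few. Adipose tissue is a mixture of adipocytes, endothelial cells, pericytes, fibroblast-like progenitors, macrophages and lymphocytes, and visceral fat is covered by a mesothelium. In a bulk library a peak held by few cells and a peak of low accessibility in many cells cannot be told apart. As a check of the tissue, 19 of 20 adipocyte genes, among them those of adiponectin and perilipin, had a peak at their promoter in each of the 4 libraries, and 0 of 3 hepatocyte genes had one in any.

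BPA 2 stood apart from the other libraries in the height and number of its peaks. Pile-up, the number of fragments stacked at a peak's summit, was solved from the fold and p-value of each peak. Over the 37960 regions with a peak in all 4 libraries the median pile-up was 32 and 35 in the control libraries, 27 in BPA 1 and 76 in BPA 2. BPA 2 also held 96180 peaks on chromosomes 1 to 19, against 80840 in control 1, 86992 in control 2 and 71128 in BPA 1. The lowest local background, another measure that moves with depth, was 2.85 and 2.70 in the control libraries, 1.16 in BPA 1 and 3.80 in BPA 2, so by it BPA 1 was the library furthest from the rest. Pile-up alone cannot tell enrichment from depth, and read totals are not given. Counting error alone is covered by the intervals below. BPA 2 supplied 11655 members, or 60.3% of them all. Control 1 supplied 2915, control 2 supplied 3948 and BPA 1 supplied 796, together 7659.

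The strongest members show what kinds of sequence the class holds, so their summits are printed here from the RefSeq GRCm38 assembly (mm10), plus strand. In control 1 the member of highest −log10 q lay at the start of Tespa1, a gene of T-cell receptor signalling (chr10:130322751-130322881), and the strongest promoter member after it at the start of Il5ra, the interleukin-5 receptor (chr6:106749008-106749099). None of the motifs searched further on was found in either stretch, and in both lines the capital marks the annotated first base of a transcript. No more than 30 bases of an exon are shown.

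Tespa1 start, control 1: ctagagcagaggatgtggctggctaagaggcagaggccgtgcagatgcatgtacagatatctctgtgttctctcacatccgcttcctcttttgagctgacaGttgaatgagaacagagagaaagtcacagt
Il5ra start, control 1: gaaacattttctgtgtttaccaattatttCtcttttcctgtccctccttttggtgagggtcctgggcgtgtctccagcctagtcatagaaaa

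Control 2 held the 3 strongest members of the whole class, and all 3 lay in sequence that occurs more than once in the reference. Capitals mark bases in 32-base words found more than once in the genome for the members on chromosome 12 (chr12:3109946-3110145, 176 of 200 bases) and in an intron of Chl1 on chromosome 6 (chr6:103649093-103649292, 165 bases). For the member on chromosome 1 (chr1:24613018-24613217) capitals mark bases in words that also occur in the mitochondrial genome, which held for 199 of 200 bases.

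Chromosome 12 member, control 2: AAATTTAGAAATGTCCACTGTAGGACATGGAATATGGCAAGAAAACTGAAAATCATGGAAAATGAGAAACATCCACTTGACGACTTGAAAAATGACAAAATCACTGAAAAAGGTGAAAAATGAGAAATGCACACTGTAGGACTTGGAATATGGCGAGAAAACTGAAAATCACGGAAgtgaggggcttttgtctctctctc
Chl1 intron member, control 2: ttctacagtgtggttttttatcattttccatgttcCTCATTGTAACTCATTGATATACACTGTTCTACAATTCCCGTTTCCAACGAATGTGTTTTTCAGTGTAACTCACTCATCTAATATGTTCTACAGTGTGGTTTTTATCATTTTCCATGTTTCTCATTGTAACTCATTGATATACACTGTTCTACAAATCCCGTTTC
Chromosome 1 member, control 2: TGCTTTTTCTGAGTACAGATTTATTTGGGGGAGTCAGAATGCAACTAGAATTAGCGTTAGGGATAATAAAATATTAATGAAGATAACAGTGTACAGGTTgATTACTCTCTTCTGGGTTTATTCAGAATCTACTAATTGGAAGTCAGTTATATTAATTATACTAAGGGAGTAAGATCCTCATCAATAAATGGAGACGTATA

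The remaining windows are the strongest member and the strongest promoter member of BPA 1 and of BPA 2. BPA 1's strongest member lay 44019 bp from the start of Cyp2j5 (chr4:96708038-96708237), with none of the motifs and its summit in capitals, and its strongest promoter member lay at Myl4, a muscle myosin light chain (chr11:104576711-104576910). BPA 2's strongest member lay in an intergenic region (chr2:26744445-26744644) and its strongest promoter member reached to within 500 bp of the start of Zfp541, although the summit window printed (chr7:16070936-16071135) lies 809 bp away at its centre, in intergenic sequence. Capitals mark an E-box, CAGCTG, in the Myl4 window and the RUNX motif, TGTGGTT or its complement, in the BPA 2 windows.

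Intergenic member near Cyp2j5, BPA 1: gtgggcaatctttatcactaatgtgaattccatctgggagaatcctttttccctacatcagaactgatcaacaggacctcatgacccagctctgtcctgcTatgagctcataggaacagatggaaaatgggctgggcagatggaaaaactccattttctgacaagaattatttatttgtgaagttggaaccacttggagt
Myl4 promoter, BPA 1: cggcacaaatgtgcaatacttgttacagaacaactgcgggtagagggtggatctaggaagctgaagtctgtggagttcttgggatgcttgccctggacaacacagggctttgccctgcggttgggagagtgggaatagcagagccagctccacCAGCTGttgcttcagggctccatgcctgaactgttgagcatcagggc
Intergenic member, BPA 2: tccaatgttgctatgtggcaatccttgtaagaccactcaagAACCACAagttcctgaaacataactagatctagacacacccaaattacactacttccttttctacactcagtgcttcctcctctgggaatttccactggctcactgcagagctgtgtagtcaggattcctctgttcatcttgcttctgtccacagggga
Summit of the member near Zfp541, BPA 2: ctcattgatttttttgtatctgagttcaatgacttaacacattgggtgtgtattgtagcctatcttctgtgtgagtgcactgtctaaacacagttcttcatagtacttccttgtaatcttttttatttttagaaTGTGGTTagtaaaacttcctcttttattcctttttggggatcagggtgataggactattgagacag

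Single-library regions were common among weak peaks and rare among strong ones. When regions were binned by their highest −log10 q, the share found in 1 library fell from 87.9% of 42813 regions below 5 to 44.8% of 31215 between 5 and 10, 16.2% of 29327 between 10 and 20, 2.83% of 20206 between 20 and 40 and 0.0436% of 20637 at 40 or more. Most members were therefore near the threshold: 13978 (72.4%) lay between 5 and 10, 581 reached 20 and 9 reached 40. Among the peaks of one library with a −log10 q of at least 5, members made up 6.02% for control 1, 7.07% for control 2, 1.48% for BPA 1 and 14.1% for BPA 2. Members of control 1 had a median −log10 q of 6.57, those of control 2 of 7.38, those of BPA 1 of 6.21 and those of BPA 2 of 8.09.

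**Figure D1:**
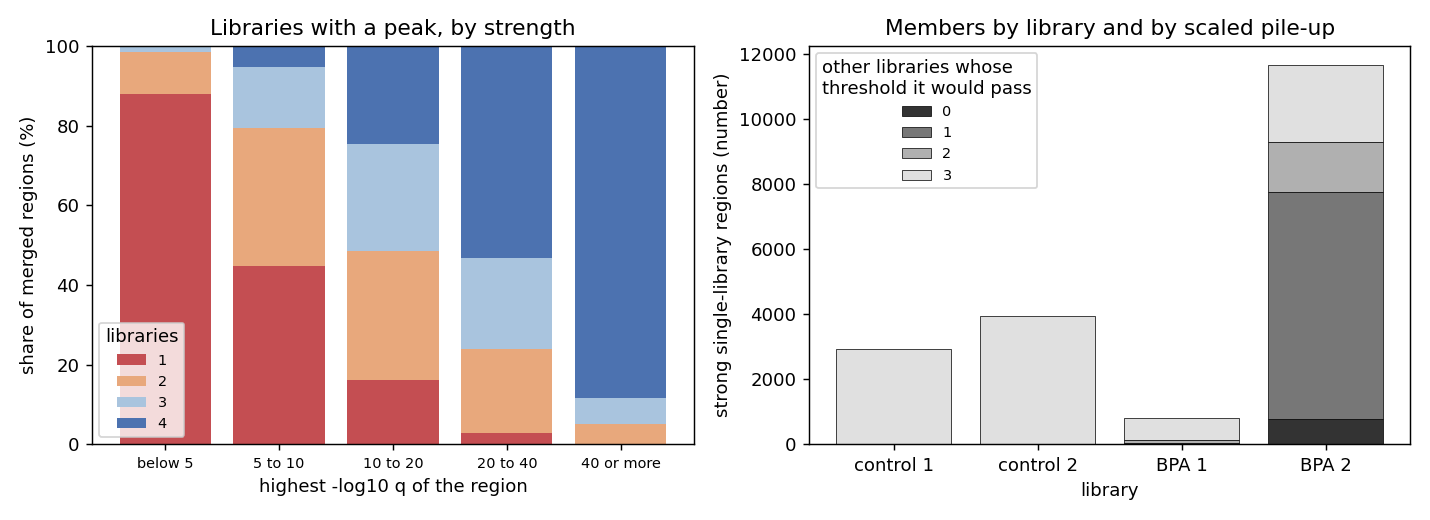
Left, share of merged regions (%) with a peak in 1, 2, 3 or 4 libraries, by the highest −log10 q of the region. Right, number of members per library, shaded by how many of the other 3 libraries' lowest listed significance the scaled pile-up would pass: all members of both control libraries would pass all 3, against 2378 of 11655 in BPA 2.

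Whether a site of the same openness would have been listed in another library depends on that library's depth and enrichment. The pile-ups cannot separate these. Each member's pile-up was therefore multiplied by the median ratio of pile-ups at the shared regions and set against the lowest pile-up that the other library would have listed at the same local background. The members' own strength, by which they were chosen, enters this value, so it is a description. All members of control 1 and control 2 would have passed in all 3 other libraries. The minimum for members lies well above the level at which peaks were listed, but it is the same for every library. The ratios to the other libraries ran from 0.887 to 2.73 for the control libraries, from 1.05 to 2.91 for BPA 1 and from 0.344 to 0.402 for BPA 2. Of the BPA 1 members, 675 of 796 would have. Of the BPA 2 members, 2378 (20.4%) would have passed in all 3, 6983 (59.9%) in 1 only and 766 (6.57%) in none. By library, 93.4% of them would have passed in BPA 1, 33.5% in control 2 and 20.4% in control 1. The scale matters for BPA 2: with the ratio of the lowest local backgrounds in its place, an alternative chosen after the data were seen, 8222 of its members (70.5%) would have passed in all 3 libraries and 0 in none.

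Members lay away from promoters. A peak was counted as a promoter peak when it overlapped 500 bp either side of an annotated start site. This held for 51 of 2915 members of control 1 (1.75%, 95% Wilson interval 1.33 to 2.29), 47 of 3948 of control 2 (1.19%, 0.896 to 1.58), 16 of 796 of BPA 1 (2.01%, 1.24 to 3.24) and 347 of 11655 of BPA 2 (2.98%, 2.68 to 3.30). Strong peaks of the same libraries in regions shared by all 4, called shared peaks below, were promoter peaks in 35.0%, 32.3%, 33.7% and 32.1%. The difference averaged −31.3 percentage points (SD 1.70, n = 4 libraries) and was negative in 4 of 4 libraries, with a two-sided exact sign-flip permutation p of 0.13 after rounding, the smallest that 4 libraries allow. Members are weaker than shared peaks. Against shared peaks of the same bin of −log10 q the difference was −9.24 percentage points (SD 6.28), negative in 4 of 4 libraries (−13.4 and −15.4 in the controls, −6.17 in BPA 1, −1.95 in BPA 2; exact permutation p = 0.13). Weak single-library regions, those under the minimum −log10 q, were promoter peaks in 1.23% for control 1, 1.16% for control 2, 2.23% for BPA 1 and 2.57% for BPA 2. The low promoter share was thus not particular to the strong regions. Of all members, 9480 summits (49.1%) fell in introns, 8737 (45.2%) between genes, 389 (2.01%) within 500 bp of a start site, 341 in coding exons and 297 in 3' untranslated exons. The nearest start site lay at a median of 37302 bp from control 1 members and 34388 bp from control 2 members, 26068.5 bp from those of BPA 1 and 29767 bp from those of BPA 2, against 10743 to 12792.5 bp for shared peaks.

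**Figure D2:**
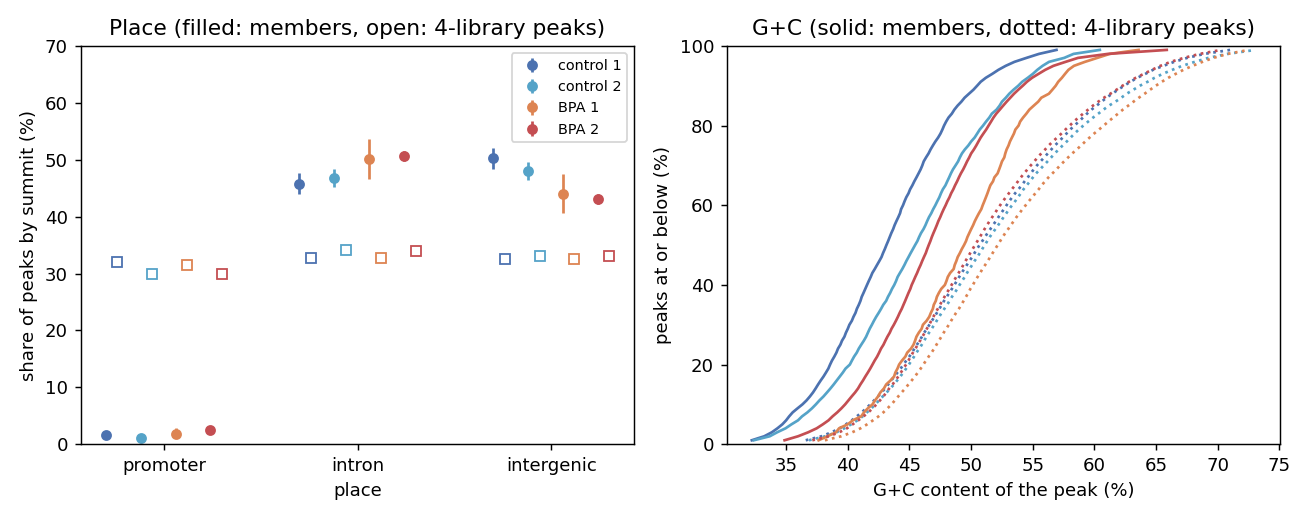
Left, share of summits (%) at promoters, in introns and between genes for members (filled) and shared peaks (open) of each library, with 95% Wilson intervals, which are smaller than most points. Right, cumulative share of peaks (%) by G+C content (%), members solid and shared peaks dotted: the member curves are spread by library, with control 1 lowest (median 43.1%) and BPA 1 highest (49.4%), whereas the dotted curves lie close together.

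Members were also narrower and poorer in G+C than shared peaks. Control 1 members had a median width of 519 bp, control 2 members of 334 bp, BPA 1 members of 328.5 bp and BPA 2 members of 545 bp, against 919, 742, 750 and 1096 bp for shared peaks, and 693, 570, 528 and 730 bp for shared peaks of the same strength. The widest member spanned 2775 bp and the narrowest 184 bp. Each peak list had its own minimum width, however. For control 1, control 2, BPA 1 and BPA 2 these minima were 227, 184, 239 and 299 bp, so only control 2 listed any peak of 184 bp. The part of the minima in the width differences between libraries was not tested. The control 1 members had a median G+C of 43.1%, those of control 2 of 45.5%, those of BPA 1 of 49.4% and those of BPA 2 of 46.6%, against 50.7%, 51.1%, 52.2% and 50.3%. The difference averaged −4.92 percentage points (SD 2.13, n = 4; exact sign-flip permutation p = 0.13) and was negative in all 4 libraries. It did not hold in every library at matched strength, where it was −5.69 and −4.25 in control 1 and 2 but 0.972 and −0.196 in BPA 1 and 2 (mean −2.29, exact permutation p = 0.375). The 20 kb around the members followed the same order, with median G+C of 42.5%, 42.6%, 45.01% and 44.5%, whereas the surroundings of shared peaks lay between 45.1% and 45.3%. Weak single-library regions, of which there were 37629, had a median G+C of 40% for control 1, 41.7% for control 2, 48.9% for BPA 1 and 46.3% for BPA 2. Their median widths were 335, 261, 304 and 424 bp in the same order, narrower than members.

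Repeats marked in the reference took a mean of 13.0% of the bases of control 1 members, 11.4% for control 2, 10.01% for BPA 1 and 13.6% for BPA 2, which was 2.27 percentage points (SD 0.851, n = 4) above shared peaks, higher in 4 of 4 libraries (exact sign-flip permutation p = 0.13). At matched strength the excess was 2.58, 1.75 and 1.84 percentage points in control 1, control 2 and BPA 2 and −0.170 in BPA 1. Weak single-library regions held more repeat than members, with means of 14.9%, 13.3%, 11.2% and 13.9% in control 1, control 2, BPA 1 and BPA 2. Members that were mostly repeat were few: 248 of 19314 (1.28%) had more than 50% of their bases marked, against 0.167% of shared peaks. Without BPA 2, and with regions of exactly 1 of the other 3 libraries as members, the differences were −30.2 percentage points for promoters, −4.86 for G+C and 2.24 for repeats.

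Of 19314 members, 6 had more than 50% of the 32-base words around their summit elsewhere in the reference, 4 in control 2 and 2 in BPA 2. Of 139905 shared peaks, 11 did. These 6 members include the 3 strongest of the class. The member at chr12:3109895-3110098 was 204 bp wide and wholly repeat, with a −log10 q of 156, a fold over background of 33.6 and a pile-up of 129. The member in the Chl1 intron was 186 bp wide with a −log10 q of 143 and a fold of 24.0. The member at chr1:24612708-24613391, 25681 bp from the start of Col19a1, had a −log10 q of 91.6 and a fold of 21.8, and 81.1% of its words occur in the mitochondrial genome, which was true of no other member. Control 2 was also the library with the highest mitochondrial pile-up, 18104 fragments, against 11300 for control 1, 4446 for BPA 1 and 8155 for BPA 2. The part of mitochondrial fragments in this member was not tested. The next members of control 2 lay in single-copy sequence: in an intron of Kcnh8, a potassium channel, with a −log10 q of 39.3, and 201002 bp from the start of Atp6ap1l with 33.4.

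Members at promoters were few. Those at promoters of protein-coding genes numbered 35 for control 1, 35 for control 2, 11 for BPA 1 and 286 for BPA 2. The genes they belonged to made up 0.175%, 0.175%, 0.0549% and 1.42% of 20021 protein-coding genes, whereas 63.5%, 62.3%, 65.1% and 68.5% had any promoter peak of the respective library. Of the 35, 35, 11 and 284 genes, 25, 27, 9 and 220 had no promoter peak in any other library. The others had another, separate peak at the same promoter elsewhere.

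Of the 5 strongest in control 1, 4 were at genes of lymphocytes. Tespa1 had a −log10 q of 37.5 and a fold of 7.89 at a pile-up of 70, with no promoter peak in control 2, BPA 1 or BPA 2. Il5ra, which B-1 lymphocytes and eosinophils carry, had 16.9, Ms4a1 (CD20 of B cells) had 12.0, and Fcer2a (CD23, the low-affinity IgE receptor of B cells) had 11.5, each without a promoter peak in the other 3 libraries. The remaining one of the 5 was H4c2, a replication-dependent histone gene (16.7), of which 2.37% of words are repeated in the genome. Further down, and named after their values were seen, were Gimap3 (7.72), Gpr171 (7.75), Vav1 (5.51) and Lck (5.14), genes of lymphocyte survival and signalling. These genes stand beside others of the same cells that all or most libraries shared: Ptprc, the common leukocyte antigen CD45, had a −log10 q of 14.2 for control 1, 5.57 for control 2, 7.13 for BPA 1 and 38.0 for BPA 2. The Ptprc promoter was thus listed in all 4 libraries and highest in BPA 2, whereas the Il5ra, Ms4a1 and Fcer2a promoters were listed in control 1 alone.

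Lists of lymphocyte genes were drawn up after these values were seen, and partly from them, so their counts are no independent evidence. Of 14 B-cell genes, control 1 had a promoter peak at 9, control 2 at 2, BPA 1 at 4 and BPA 2 at 5, and members were at 3 in control 1 and at 1, Cd22, in BPA 2. Of 14 T-cell genes the counts were 7, 2, 3 and 6, with members at 4 in control 1, where 0.175% of all coding genes held one and 63.5% a promoter peak. The promoters of Cd3e and Cd79b had no peak in any library. From the smaller lymphocyte list made earlier, 4 of 9 genes had a promoter peak in control 1 and 2 in each other library.

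BPA 2 had 286 members at coding promoters. Zfp541, a zinc-finger gene of the germ line, was first with a −log10 q of 39.0 and a fold of 10.9, although its summit lay 809 bp from the start. P2ry12, the ADP receptor of platelets and microglia, followed with 26.4, Ccr3, the eotaxin receptor of eosinophils, with 25.9 (its summit 1863 bp from the start), and Adgre4, a macrophage adhesion receptor, with 25.1, none of them with a promoter peak in another library. Adcy7, an adenylyl cyclase of blood cells, had 25.2, but its promoter also held peaks in the other 3 libraries. Named after their values were seen, Cd209d (19.2), Mcemp1 (18.02), Msr1 (17.1), Clec7a (15.8), Siglech (15.5), Clec4e (14.6) and Lyz2 (13.7) are genes of myeloid or dendritic cells. From the macrophage list made earlier, 1 of 9 genes, Lyz2, held a BPA 2 promoter member, and Csf1r, Cd163 and Aif1 had no promoter peak in any library. Of 15 myeloid genes in a list made after the data were seen, 15 had a promoter peak in BPA 2, 9 in BPA 1, 6 in control 1 and 3 in control 2, and 5 held a BPA 2 member, beside 1.42% of all coding genes. The list was partly picked from these members, so nothing is read from the count. At 9 of the others the promoter peak was in BPA 2 together with another library, such as Fcgr1, an antibody receptor, with 49.2 in BPA 2 and 8.25 in BPA 1. The part of depth in these members was not tested.

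Control 2 and BPA 1 showed other genes. Control 2's strong promoter members included Slc17a6, a vesicular glutamate transporter (14.9), Cyp3a13 (14.2) and Cyp2b10 (13.5), cytochromes P450 that metabolise steroids and foreign compounds, and Prss32, a serine protease (13.0). All 4 were without a promoter peak in the other libraries. BPA 1's were weaker, led by Myl4 (8.98), Nell2 (7.22), Mb, the gene of myoglobin (6.72), Etv3l (6.06) and Add2 (5.60), and of these only Myl4 had a promoter peak elsewhere, in the other 3 libraries.

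**Figure D3:**
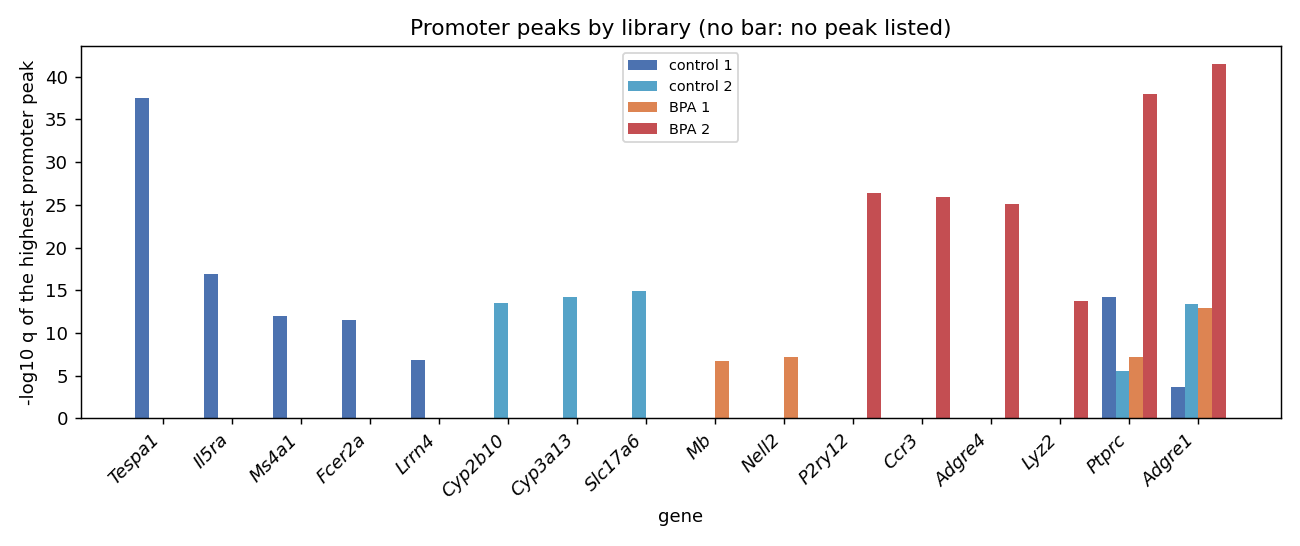
Highest −log10 q of a promoter peak for named genes in each library, with no bar where no peak was listed. All genes other than the last pair hold members and have a bar from 1 library each, whereas Ptprc and Adgre1, at the right, have bars from all 4 libraries and are highest in BPA 2 (38.0 and 41.5).

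Away from promoters, members were counted by the protein-coding genes whose start lay within 50 kb. Of 20021 such genes, 11.6% had a member of control 1 within this distance, 17.3% of control 2, 5.01% of BPA 1, 42.9% of BPA 2 and 58.5% of any library, and these shares are the background for each list. The adipocyte list had 2 of 20 genes for control 1 (10%), 8 for control 2 (40%), 1 for BPA 1 and 14 for BPA 2 (70%). Control 2's 8 genes were Acaca, Cd36, Cebpa, Dgat2, Gpam, Lipe, Plin1 and Pnpla2, which make, take up, store or release fatty acids, except for the regulator Cebpa. Of these 8 promoters, 7 had a peak in all 4 libraries and that of Acaca in none. The members themselves were modest, from −log10 q 5.11 near Plin1, the coat protein of lipid droplets, to 10.2 in an intron of Acaca, which makes malonyl-CoA. In BPA 2 the strongest member near an adipocyte gene lay 44587 bp from the start of Cebpa with a −log10 q of 31.5. The members near Pparg, the master regulator of adipocyte formation, had 15.9, 8.31 and 5.42.

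The other lists differed by library too, on small counts. All 8 pericyte and smooth muscle genes had a BPA 2 member within 50 kb, among them Acta2, Myh11, Rgs5 and Notch3, and 1 had a control 1 member, 0 a control 2 member and 2 (Des and Rgs5) a BPA 1 member. Of 12 endothelial genes, 3, 4, 1 and 8 had members of control 1, control 2, BPA 1 and BPA 2. Of 9 macrophage genes the counts were 3, 5, 1 and 6, and of 9 lymphocyte genes 2, 0, 1 and 4. The members counted for Csf1r, a macrophage gene, were counted for Pdgfrb of the pericyte list as well, whose start lay nearer to them. Of 6 mesothelial genes, 3 (Krt19, Lrrn4 and Upk1b) had a control 1 member, 1 a control 2 member, 0 a BPA 1 member and 2 a BPA 2 member. Peaks at the promoters of these 6 were listed for 5 genes by control 1, for 2 by control 2, for 2 by BPA 1 and for 1 by BPA 2. The promoter peak of Lrrn4, a leucine-rich repeat protein of mesothelium, was a control 1 member with a −log10 q of 6.87 and a fold of 2.86. Upk1b and Krt19 promoters had peaks in control 1 alone as well, with a −log10 q of 4.02 and 3.45, too weak for the rule. The rest of the list went otherwise. Wt1 had a promoter peak in all 4 libraries, with 10.1, 14.3, 23.1 and 40.5 in control 1, control 2, BPA 1 and BPA 2. Upk3b had one in control 1 (9.22), control 2 (10.8) and BPA 1 (8.48), and Msln in no library. Families expressed mainly in sensory neurons or liver lay under the background: of 1101 olfactory receptor genes 2.72%, 5.90%, 1.45% and 5.27% had members of the respective libraries, of 349 vomeronasal receptor genes 2.58% had a member of any library, and of 22 major urinary protein genes 0 had one. So did the 386 zinc finger Zfp genes, with 7.25%, 8.81%, 3.11% and 26.9%, although 313, 313, 310 and 323 of them had a promoter peak. For a member of any library, cytochrome P450 genes (44.4%) and serpins (51.6%) lay under the background and histocompatibility H2 genes (65.7%) above it. The part of expression was not tested.

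The strongest distal members follow by library. In control 1 they were at chr6:28193097-28194497 (−log10 q 25.8), at chr3:19318975-19319847, 7956 bp from the start of Pde7a, a phosphodiesterase of lymphocytes among other cells (24.2), in an intron of Npas3 (22.1) and 208645 bp from Cdh12 (21.4). In BPA 1 the member near Cyp2j5 had a −log10 q of 19.2, and others lay in an intron on chromosome 18 (18.5), in an intron on chromosome 8 (18.4), 39303 bp from Otor (18.4) and 24801 bp from Irf8, a factor of myeloid and B cells (17.99). BPA 2's strongest, at chr2:26744402-26744798, had 49.2. It was followed by members 35897 bp from Ptger4, a prostaglandin E2 receptor (47.7), 15059 bp from Psap (47.6), 62303 bp from Tnip3 (44.2) and 8721 bp from A230001M10Rik (43.3). The member near Psap had the highest local background of these, 5.81 times the library's lowest.

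Members of the same library were grouped where they lay within 10 kb of each other, edge to edge. In all, 2555 members (13.2%) had such a neighbour, in 1202 groups of which 126 held 3 or more. For control 1 the share was 7.89%, for control 2 5.57%, for BPA 1 1.01% and for BPA 2 17.99%, a mean of 8.11% (SD 7.18, n = 4). Members lay a median of 380613 bp apart for control 1, 331883 bp for control 2, 1488540 bp for BPA 1 and 78184 bp for BPA 2. Control 2 thus had more members than control 1 and a lower grouped share. The part of member number in the shares was not tested.

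**Figure D4:**
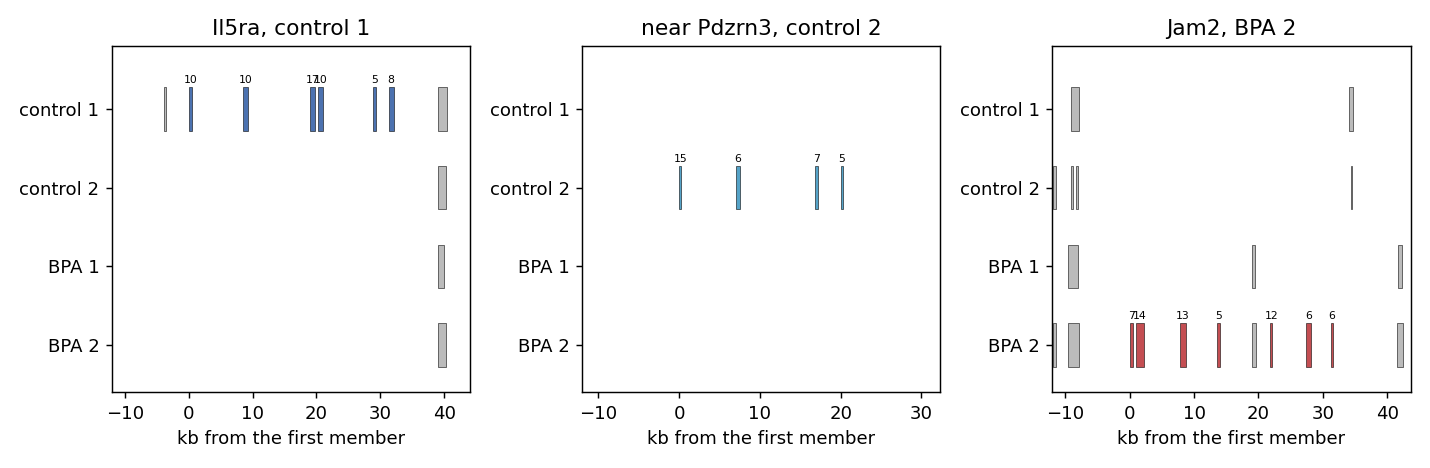
Peaks of the 4 libraries (rows) around the groups with most members in control 1, control 2 and BPA 2, in kb from the first member. Coloured boxes are members with their −log10 q above them, and grey boxes are other peaks: the 6 members at Il5ra and the 4 near Pdzrn3 have no peak of another library between them, whereas the 7 in Jam2 have 1.

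The largest group of control 1 spanned 32.1 kb over Il5ra (chr6:106729615-106761680) and held 6 members, with −log10 q of 10.3, 10.0, 16.9, 10.3, 5.43 and 7.93 from left to right. The 16.9 was the promoter, and 0 peaks of the other libraries lay inside the span. The next group of control 1 was made of 3 members over Tespa1 within 12.6 kb (chr10:130318871-130331443), again with 0 peaks of other libraries. The loci of the 2 strongest promoter members of control 1 thus held further members beside the promoter. The last of the 3 groups named for control 1, which had 5 groups of 3 or more, held 3 members in Pvt1, a noncoding gene beside Myc. One peak of another library lay in its span.

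Control 2's largest group held 4 members in 20.3 kb of intergenic sequence nearest to Pdzrn3 (chr6:101429891-101450235), with −log10 q of 15.2, 6.05, 7.06 and 5.17 and 0 peaks of other libraries between them. It was followed by 3 members in an intron of Negr1, a neural adhesion gene, and 3 in Pde11a, a phosphodiesterase, with 0 and 3 peaks of other libraries in the span. BPA 1 had 4 groups and no more than 2 members in any. The group with the highest local background lay in Loxl1, an enzyme that cross-links elastin, at 11.9 times the library's lowest, and shared its span with 4 peaks of other libraries. BPA 2's largest group held 7 members in introns of Jam2, a junctional adhesion molecule of endothelium (chr16:84783121-84814758), with −log10 q from 5.18 to 14.0 and 1 peak of another library in the span. Its next groups held 5 members 17600 to 37049 bp from Ppp1r3b, a subunit that directs phosphatase to glycogen, and 5 in Glg1.

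The rule removes every region that overlaps a peak of another library, and the distance to the nearest such peak is given as a description. A peak of another library lay within 1000 bp of 12.8% of control 1 members, 11.3% of control 2 members, 10.3% of BPA 1 members and 9.49% of BPA 2 members (mean 11.0%, SD 1.41, n = 4), and within 5 kb of 52.4%, 54.6%, 62.2% and 53.5%. The median distance to it was 4628, 4317, 3691 and 4604 bp. Members were spread over all 19 chromosomes, from 6.59 per Mb on chromosome 14 to 9.76 on chromosome 11, and took between 11.9% and 14.4% of the regions of each.

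The short motifs under the members differed by library. Motifs were searched in the 200 bp around each summit on both strands: TGANTCA for AP-1, AGGGGGCGC for the CTCF core, CCGGAAGT for ETS, CCAATCA for NF-Y, GCGCATGCG for NRF1, CCCGCCC for Sp/Klf, TTGCNNAA for C/EBP, AGATAAG for GATA factors, CATCAAAG for TCF7L2, AGGTCA for nuclear receptors, CCCNNGGG for EBF, TTGGCA for NFI, ACATTCC for TEAD, TGTGGTT for RUNX, and CAGCTG and CACGTG for E-boxes. Motifs may overlap each other, and a match describes the letters, not a bound factor.

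In control 1, GATA was found in 174 of 2915 member windows, 5.97% (95% Wilson interval 5.17 to 6.89), against 2.91% in control 2, 1.88% in BPA 1 and 2.45% in BPA 2. Shared peaks had 2.3%, 2.02%, 1.89% and 1.80%, and shared control 1 peaks of the same strength 2.54%. Weak single-library regions had 4.66%, 3.86%, 2.96% and 2.58%, which is above shared peaks in every library and above members in all but control 1. A GATA share above that of shared peaks was thus not particular to members. TEAD, the motif of the factors that act with YAP, was found in 9.16% of control 1 members (8.17 to 10.3) against 3.65%, 5.03% and 3.97% in the other libraries, and in 4.72% of shared control 1 peaks of the same strength. RUNX, the motif of factors that direct blood cell formation, was found in 7.24% (6.35 to 8.24), and in 5.93% of BPA 2 members (5.51 to 6.37), against 4.28% and 4.29% of shared peaks of the same strength in these libraries. Control 1 members had the highest share of all 3 motifs. Weak single-library regions of control 1 had 4.71% for TEAD and 4.54% for RUNX, and those of BPA 2 had 5.39% for RUNX. The intervals cover counting within 1 library each and are no test between libraries or animals.

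Control 2 members held C/EBP, the motif of the factors that drive adipocyte differentiation, in 800 of 3948 windows, 20.3% (19.04 to 21.5). Control 1 had 12.9%, BPA 1 10.8% and BPA 2 12.1%, and shared control 2 peaks 13.8%. NFI, the motif of nuclear factor I, was in 27.8% of control 2 members (26.4 to 29.2) against 20.3% in control 1, 13.1% in BPA 1 and 15.1% in BPA 2, and in 18.7% of shared control 2 peaks. AP-1 was lowest in the members of control 2, 8.23%, and was found in 11.6% in control 1, 15.8% in BPA 1 (13.5 to 18.5) and 12.6% in BPA 2, against 8.61% to 9.47% of shared peaks. BPA 1 members were highest in the E-box CAGCTG, a site of myogenic and other bHLH factors, with 23.0% (20.2 to 26.0) against 10.4%, 14.4% and 15.8% in control 1, control 2 and BPA 2.

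**Figure D5:**
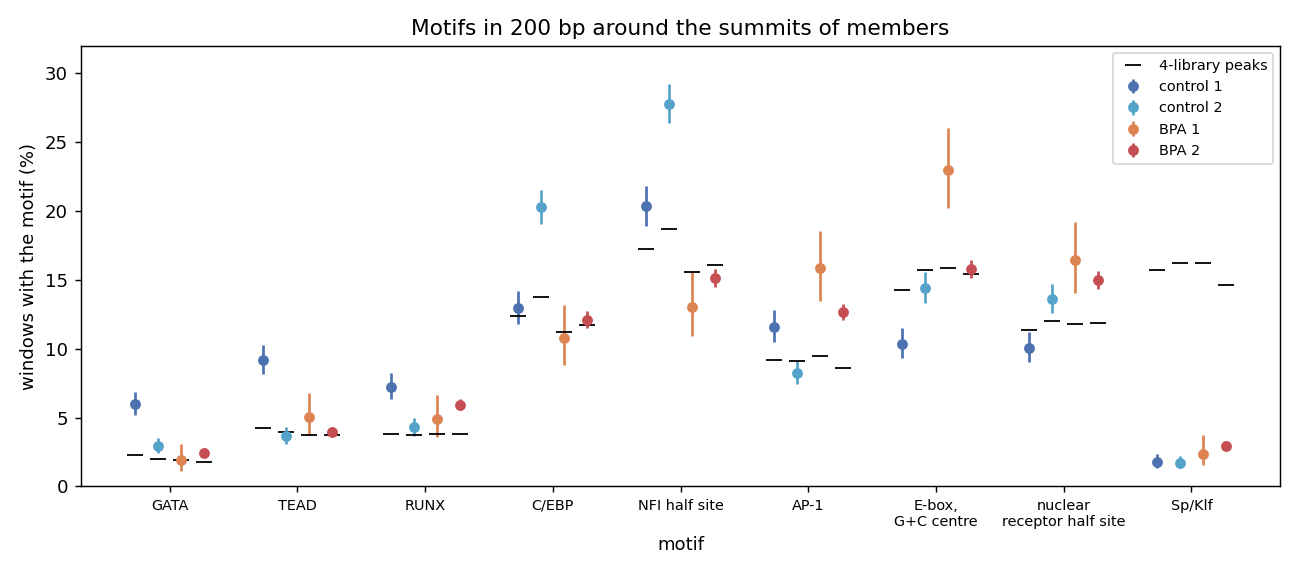
Share of member windows (%) that hold each motif, by library, as points with 95% Wilson intervals (counting error only), with the share in shared peaks of the same library as a dash. Control 1 stands above the others for GATA and TEAD, control 2 for C/EBP and NFI and BPA 1 for the E-box, and members lie under the unmatched shared peaks for Sp/Klf.

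Base composition bears on such counts. In windows of 40 to 50% G+C alone, a restriction chosen after the data were seen, control 1 still had the highest GATA (5.99% against 2.32% to 2.96%), TEAD (9.59% against 3.61% to 4.05%) and RUNX share (8.57% against 4.10% to 6.60%), and control 2 the highest C/EBP (21.8% against 12.8% to 13.9%) and NFI share (28.4% against 12.4% to 20.1%). Against shared peaks in the same window of G+C, however, the C/EBP share of control 2 members was close (21.8% and 21.5%), whereas control 1 members remained higher for GATA (5.99% and 3.53%) and TEAD (9.59% and 5.89%). The E-box excess of BPA 1 shrank to 17.0%, against 14.4% of its shared peaks. The AP-1 share was 12.6%, 8.65%, 15.7% and 14.3% of members in this window of G+C, against 12.8%, 12.5%, 14.1% and 12.3% of shared peaks, so the excess of control 1 turned to −0.21 percentage points and that of BPA 1 was 1.61. Sp/Klf was found in 1.78%, 1.72%, 2.39% and 2.91% of them, against 15.7%, 16.2%, 16.2% and 14.6% of shared peaks, and ETS in 0.127% to 0.503% against 1.97% to 2.57%. Within 40 to 50% G+C, Sp/Klf was found in 1.26%, 0.546%, 0.515% and 1.04% of members against 1.84%, 1.70%, 1.57% and 1.48% of shared peaks. Against shared peaks of the same strength, Sp/Klf was lower in members of control 1 (1.78% against 7.56%), control 2 (1.72% against 9.20%) and BPA 1 (2.39% against 4.25%), but not of BPA 2 (2.91% against 2.84%). ETS rested on few member windows, 7 of 2915 in control 1 and 5 of 3948 in control 2. BPA 1 had 4 of 796 and BPA 2 had 50 of 11655. Under either matching ETS was lower than in shared peaks in both controls. It was higher in both BPA libraries, by 0.019 to 0.415 percentage points. The Wilson interval of the BPA 1 share, 0.196 to 1.28%, held the 0.320% of its shared peaks of the same strength. BPA 2 had 0.429% against 0.145% at the same strength, but 0.416% against 0.397% within 40 to 50% G+C. Whether ETS differed by treatment was not tested.

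As for treatment, the control libraries supplied 3431.5 members on average (SD 730, n = 2) and the BPA libraries 6225.5 (SD 7678, n = 2), with one BPA library below both controls and the other above both. An exact permutation test of 2 libraries against 2 cannot give a p under 0.33. Members of both control libraries had a lower median G+C (43.1% and 45.5%) than those of both BPA libraries (49.4% and 46.6%) and lay further from start sites (37302 and 34388 bp against 26068.5 and 29767 bp). Neither difference was tested.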

How the data were processed

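ATAC-seq was performed on visceral adipose tissue of CD-1 mice, with 2 libraries per group, and libraries were grouped by their labels. Per the submitters' notes, the authors trimmed reads with Trim Galore, aligned them to mm10 with Bowtie2 2.3.5.1 and SAMtools, removed duplicates and called peaks per library with MACS2 2.2.7.1. The deposited narrowPeak lists hold an integer score, the fold over local background (a ratio), −log10 p and −log10 q for each peak. They give no read totals, so the depth per library is unknown beyond what the pile-ups and the lowest local backgrounds show. The libraries came from 4 mice, so spread within a group joins animal and technical differences. The second BPA library, which supplied most members, has label replicate 2 and a peak list named as replicate 3. The label was followed.

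Intervals sharing at least 1 bp were merged. Pile-up and background were solved from fold and p, with a relative error under 1e-04 for every peak. Annotation and sequence were RefSeq GRCm38 (45756 curated transcripts), the same assembly as mm10. Words of 32 bases were counted on both strands. Shared peaks (−log10 q of at least 5, region in all 4 libraries) were the comparison, with exact sign-flip permutation tests over libraries. Python 3.11.15, numpy 2.4.6, pandas 2.3.3, scipy 1.17.1, pysam 0.24.0 and numba 0.67.0 were used, and the code was tested on simulated data. Named were the 5 strongest members, the 5 strongest members at coding promoters and the 3 groups with most members per library, with other names said to be chosen later. Some named items are not reported here. Members, lists and tests were chosen with earlier results of these data known. Chromosomes X, Y and M were left out of the comparisons.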

Additional observations from a re-analysis of the deposited data

Results flagged for a closer look

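The NFI motif was more frequent under members than under shared peaks in both control libraries, by 3.12 and 9.08 percentage points in control 1 and control 2, and less frequent in both BPA libraries, by −2.54 in BPA 1 and −0.969 in BPA 2. The E-box CAGCTG went the opposite way, with −3.90 and −1.31 in the control libraries, 7.12 in BPA 1 and 0.380 in BPA 2. Both were singled out because each control library moved one way and each BPA library the other. Within 40 to 50% G+C the pattern was lost: NFI in control 1 turned to −2.97 and the E-box in BPA 2 to −0.089 percentage points. Against shared peaks of the same strength the directions were kept. There NFI differed by 0.664, 8.60, −7.15 and −6.74 percentage points in control 1, control 2, BPA 1 and BPA 2, and the E-box by −5.61, −2.64, 6.82 and 0.783. The difference between the groups was not tested, since 2 libraries against 2 cannot give an exact permutation p under 0.33.

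Chromosome X, which the comparisons did not use, held strong single-library peaks in every library: control 1 had 106, control 2 had 161, BPA 1 had 7 and BPA 2 had 209. Chromosome Y and the mitochondrial genome held 0.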

How the results depend on the processing

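Of 59 recomputed values, 14 moved by more than 1 SD between libraries (for the number of members, by more than 1.5 times). The other 45 did not, or, for the tested differences, kept their direction. The promoter, G+C and repeat differences kept their mean direction under every alternative, from −39.0 to −9.24, from −6.25 to −2.29 and from 1.498 to 3.27 percentage points. No paired analysis was possible because no fit compares the groups and the shared replicate numbers tie no animals together. The number of members was 5336 at a minimum −log10 q of 10 and 56943 with no minimum, and ranged from 20888 to 31693 with 1 library left out, the highest without BPA 1, when BPA 2 alone held 24217. With equal numbers of peaks per library, 71128 each, it was 18848, of which 7611 were BPA 2's. The mean grouped share was 2.64% at a minimum of 10, 4.06% for a gap of 5 kb, 17.0% with no minimum, 28.7% for a gap of 50 kb, and 11.0% to 17.2% with 1 library left out. The share with a neighbouring peak was 8.34% at a minimum of 10, 14.3% with no minimum, 6.55% with regions joined across 500 bp, 8.68% with equal numbers, 4.33% within 500 bp, 55.7% within 5 kb, and 8.14% to 11.2% with 1 library left out. The cause was not tested where the alternative's construction does not give it. With peak lists in place of reads, a site absent from a list is one that missed that library's threshold, not one known to be closed.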
